A study of Homo sapiens with 11 samples.

Results

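The genes described here are 36 genes of the actin cytoskeleton, many of them known targets of serum response factor (SRF). They were chosen by name, as the rows of a gene count table whose symbol is on a list, and 36 of the 36 listed genes were found among 78932 human gene rows. The list was drawn up with earlier results of these data known. A higher share of called members than of all genes may therefore be partly built into the choice. All 36 passed the filter on low counts, after which 18245 genes were tested. The counts come from RNA-seq of polyadenylated RNA from engineered myometrial microtissues (EMMIs), which the study built to measure contraction of uterine muscle in response to oxytocin. The cells were hTERT-HM, smooth muscle cells of the human uterus that carry telomerase so that they keep dividing, with the genotype given as WT, and no other agent or allele is named in the labels. Formation took 6 days, and there were 3 libraries of day 1, 4 of day 3 and 4 of day 6. One cell line was used, and the labels do not say whether replicates were separate cultures, so p-values measure the spread between these libraries, which may be technical.

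Actin monomers assemble into filaments that tropomyosins coat, alpha-actinins and filamins crosslink, and nonmuscle myosin II pulls on. In smooth muscle these filaments work beside the contractile ones and carry force from the cell's interior to its adhesions. Monomeric actin binds and holds back the myocardin-related cofactors MRTFA and MRTFB, so that assembly of filaments releases them to act with SRF on a promoter element named the CArG box, and many genes with such a box encode actin and its partners.

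Library totals ran from 28071813 to 33021509 counts. Levels are given as counts per 1000000 library counts (CPM), scaled between libraries by the trimmed mean of M values (TMM), and changes as log2 fold changes with their standard error (SE) from edgeR's quasi-likelihood test over all 11 libraries. A gene was called at a Benjamini-Hochberg adjusted p under 0.05 over all tested genes. The smooth muscle identity named in the labels was visible in part of its markers. Markers of smooth muscle summed to between 971.7 and 1154 CPM on day 1, and TAGLN, CALD1 and SMTN were abundant, while DES, the muscle desmin gene, never exceeded 2 counts and MYH11, smooth muscle myosin heavy chain, averaged 1.14 CPM on day 1. RNA was measured in bulk, so fewer cells of a type and less RNA per cell cannot be told apart.

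Promoter windows from RefSeq (GRCh38.p14, 250 bases before to 50 after each start, several windows for some genes) were matched for 35 of the 36 genes, in 79 windows. ACTB had no window, so it was not searched. A CArG box, a pair of C, a run of A or T and a pair of G, searched on both strands, was present in 13 of these windows (16.5%), against 454 of 35116 windows of all genes (1.29%). Counted by gene, 11 of 35 members (31.4%) held at least 1 match, against 438 of 27305 genes (1.6%). The list was named for SRF-responsive genes, so a higher share of CArG boxes than over all genes was partly built into the choice. Members also had more windows per gene than all genes did, such as 12 for FHL1 and 7 for LPP, which gave more places to match. The TATA core TATAA, whose letters can lie inside a CArG box as they do in CNN2, was found in 17 of the 79 windows (21.5%) and in 20.4% of all windows. No nonmuscle myosin heavy chain and no gene of filament turnover held a match. Sequences are shown for 7 genes from the other roles and both directions of change described below. Each is on the gene's strand, with the CArG box in capitals and 10 bases on either side.
ACTG1, chr17:81512874-81512903, minus strand: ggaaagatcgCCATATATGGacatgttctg
FLNA, chrX:154374709-154374738, minus strand: ggcaattttaCCAATTAAGGctttctcgcc
CNN2, chr19:1026509-1026538, plus strand: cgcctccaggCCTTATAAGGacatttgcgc
TPM4, chr19:16067355-16067384, plus strand: aatcctaggtCCAAATAAGGcgagggctgc
TGFB1I1, chr16:31473144-31473173, plus strand: tggaggggagCCAAATTTGGcttgggtgaa
ACTC1, chr15:34795639-34795668, minus strand: gcgaaggggaCCAAATAAGGcaaggtggca
FHL2, chr2:105399091-105399120, minus strand: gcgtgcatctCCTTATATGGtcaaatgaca
The box began 94 bases before the start in both ACTG1 and FLNA, 89 in CNN2, 173 in TPM4, 51 in TGFB1I1, 109 in ACTC1 and 59 in FHL2. TPM4, TGFB1I1 and ACTC1 had 3 windows each and FHL2 had 4, so for these the start is 1 of several. The stretches shown for ACTG1, FLNA, TGFB1I1, ACTC1 and FHL2 overlap an annotated exon. TPM4 and ACTC1 hold the same 10 letters within unlike flanks. The members with a match not shown are ACTN1, FHL1, LPP and TES. FHL2 has a further box that is not shown, at chr2:105438605-105438614. That box lies in more than 1 overlapping window of FHL2 and was counted in each, so the 13 windows hold fewer separate boxes. A match is a string of letters in these windows and not a measured binding site.

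The members together fell to their lowest level on day 3 and reached their highest on day 6. They took 1.645% ± 0.148 (SD, n = 3) of all library counts on day 1, 1.358% ± 0.0305 (n = 4) on day 3 and 2.449% ± 0.0668 (n = 4) on day 6. In the early step, from day 1 to day 3, 12 members fell and 2 rose, where 5.9% of all tested genes were called lower and 6.88% higher (12.8% in all). In the late step, from day 3 to day 6, 30 members rose and 3 fell, where 26.4% of all tested genes were called higher and 23.4% lower (49.9% in all). Over the whole formation, day 6 against day 1, 23 members rose and 1 fell, against 21.3% and 18.7% of all tested genes (39.9% in all). The members' median log2 change was -0.10 in the early step, 0.35 in the late step and 0.26 over both, beside medians of 0.00, 0.03 and 0.02 over all tested genes.

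The count of early falls depended on single libraries. Leaving out replicate 1 or replicate 2 of day 1 brought it to 6 in either case, and leaving out replicate 3 of day 3 to 7. The early and the late step share the day 3 libraries, so the 2 counts are not independent of each other. Scaling also bears on the counts, since TMM factors were above 1 on day 6 and below 1 on day 3. With library totals as the only scaling, the median change of all genes shifted by -0.06, 0.18 and 0.13 in the early step, the late step and over both. The late step then had 31 members higher and 0 lower, beside 43.2% and 12.3% of all genes, and the members' median of 0.53 stood beside 0.22 for all genes. The early step had 1 member higher and 13 lower, beside 4.6% and 8.93% of all genes, and the whole formation 28 higher and 0 lower, beside 32.7% and 11.2%.

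**Figure D1:**
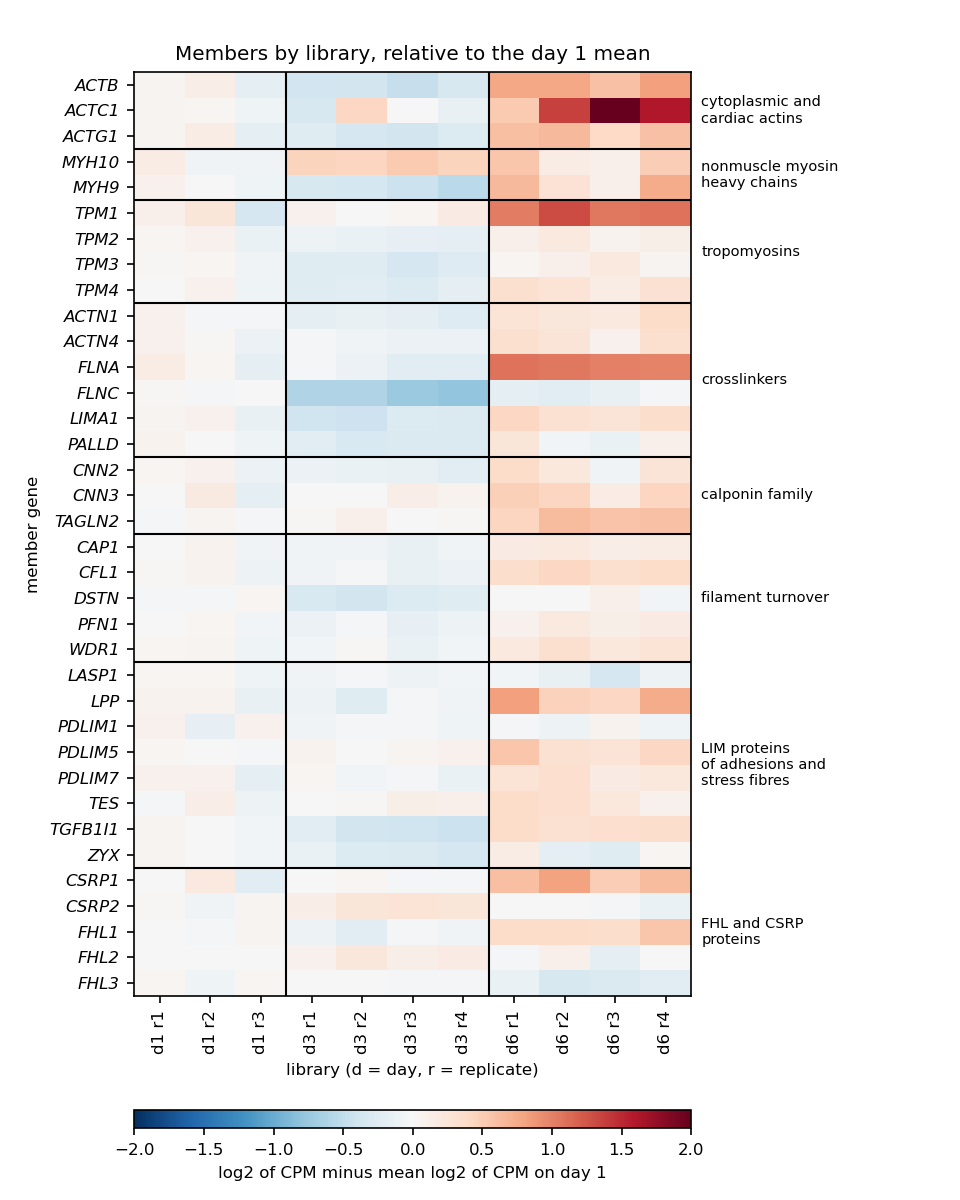
Level of each of the 36 members (rows, grouped by role) in each of the 11 libraries (columns), as log2 CPM minus the mean log2 CPM of the 3 day 1 libraries, on a colour scale from -2 to 2. The 4 day 3 columns are mostly blue or pale and the 4 day 6 columns mostly red, with MYH10, CSRP2 and FHL3 among the genes that go otherwise.

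The actins, the monomers of the filament, fell on day 3 in both cytoplasmic forms and rose on day 6 in all 3 forms. ACTB, beta-actin (chr7:5526409-5563902, minus strand, GRCh38), stood at 2946, 3117 and 2471 CPM on day 1, at 2173, 2206, 2056 and 2269 CPM on day 3, and at 4816, 4816, 4243 and 4980 CPM on day 6. No library of one day reached the range of another. The early change of ACTB was a fall by 0.39 on the log2 scale (adjusted p = 0.00485, edgeR, SE 0.0836), after which it rose by 1.12 in the late step (SE 0.0787, adjusted p = 2.41e-09, edgeR), for a net rise of 0.73. On day 6 it alone took 0.5046% ± 0.0202 (SD, n = 4) of library counts, against 0.2053% ± 0.00929 (n = 4) on day 3. ACTG1, gamma-actin (chr17:81509413-81523847, minus strand), whose CArG box is printed above, had 1728, 1837 and 1452 CPM on day 1, 1410, 1325, 1287 and 1383 on day 3, and 2534, 2618, 2205 and 2492 on day 6. Its days did not overlap either, and its changes were -0.31 (SE 0.0818) and 0.87 (SE 0.0766), with a net 0.56. Its early call (adjusted p = 0.0178, edgeR) was lost without replicate 1 or 2 of day 1 and without replicate 2 or 3 of day 3. The ratio of ACTB to ACTG1 counts, which does not depend on scaling between libraries, was between 1.697 and 1.705 on day 1, between 1.541 and 1.665 on day 3 and between 1.839 and 1.999 on day 6.

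ACTC1, cardiac alpha-actin, was the least abundant member, with 23 to 26 counts per library on day 1, 19 to 27 on day 3 and 35 to 102 on day 6. Its levels on day 6 were 1.114, 2.003, 3.095 and 2.351 CPM, all above the 0.6208 to 1.037 CPM of day 3, and they had the widest relative spread of the 36 members on day 6, with a coefficient of variation of 38.4%. It rose by 1.46 in the late step (SE 0.265, adjusted p = 0.000159, edgeR) after an early change of -0.00 (SE 0.325). The other cardiac and skeletal muscle markers, 8 genes that include MYH6, MYH7, TNNT2 and MYOD1, summed to at most 0.282 CPM in any library. Of those 8 genes, MYL7 was at 0 everywhere and 6 had at most 3 counts in every library. ACTB has 12 and ACTG1 21 pseudogene rows in the table, which held counts equal to 0.575% and 0.424% of their parent's, and reads shared with such copies could be split between them.

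The heavy chains of nonmuscle myosin II, the motors of stress fibres, moved in opposite directions in the early step. MYH9 (chr22:36281280-36388010, minus strand) had 1834, 1716 and 1625 CPM on day 1, 1378, 1353, 1283 and 1180 on day 3, and 2688, 2095, 1854 and 2896 on day 6. Its day 3 libraries were below all others, and its day 6 libraries were wide apart, with replicates 1 and 4 far above replicates 2 and 3. The early change was -0.41 (SE 0.124, adjusted p = 0.0427, edgeR) and the late change 0.88 (SE 0.116, adjusted p = 2.02e-05, edgeR). The early call was lost in 9 of 20 alternative analyses, among them each analysis without 1 of the 7 libraries of days 1 and 3. MYH10 (chr17:8474207-8631376, minus strand) had 35.18, 30.34 and 30.19 CPM on day 1, 43.29, 43.01, 45.79 and 43.36 on day 3, and 46.79, 35.27, 34.14 and 44.86 on day 6. Its day 3 libraries lay above day 1, while day 6 spread over both ranges, with replicates 1 and 4 again the high ones. MYH10 rose by 0.46 in the early step (SE 0.0995, adjusted p = 0.00672, edgeR), had a late change of -0.12 (SE 0.0906, adjusted p = 0.27) and a net rise of 0.33 (SE 0.0992, adjusted p = 0.0136, edgeR). The net call was lost without replicate 2 or 3 of day 1.

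The ratio of MYH9 to MYH10 counts was 52.1 to 56.5 on day 1, 27.2 to 31.8 on day 3 and 54.3 to 64.5 on day 6, so that day 3 stood apart from the days on either side. NDEL1, a dynein regulator, overlaps the span of MYH10 and has 305.4% of its counts. NDEL1 averaged 127.6, 138.5 and 96.4 CPM on days 1, 3 and 6, with changes of 0.12 (adjusted p = 0.228) and -0.52 (adjusted p = 4.66e-07, edgeR). Whether counting used strand is not given in the sources used here, and the part of shared reads in the MYH10 values was not tested.

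All 4 tropomyosins, the coiled coils that lie along the filament and set which motors and severing proteins reach it, rose in the late step, and TPM1 (chr15:63042620-63071915, plus strand) led them. TPM1 had 325.4, 358.1 and 240 CPM on day 1, 323.4, 306.5, 313.2 and 340.6 on day 3, and 619.2, 746.4, 627.9 and 642.8 on day 6. Days 1 and 3 overlapped, and every day 6 library was above both. The early change was 0.06 (SE 0.108, adjusted p = 0.782) and the late rise 1.04 (SE 0.101, adjusted p = 1.06e-06, edgeR). TPM4, TPM3 and TPM2 rose by 0.49, 0.37 and 0.27. TPM3 and TPM4 had fallen by 0.27 and 0.23 in the early step, although the call for TPM4 was lost without day 1 replicate 1 or 2 and without day 3 replicate 1 or 3. TPM2 had an early change of -0.15 (adjusted p = 0.132) and was not called over the whole formation, with 944.7 ± 74.5 (SD, n = 3) CPM on day 1 and 1025 ± 37.3 (n = 4) on day 6. The count ratio of TPM2 to TPM1 was between 2.81 and 3.59 on day 1, between 2.41 and 2.79 on day 3 and between 1.442 and 1.636 on day 6.

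**Figure D2:**
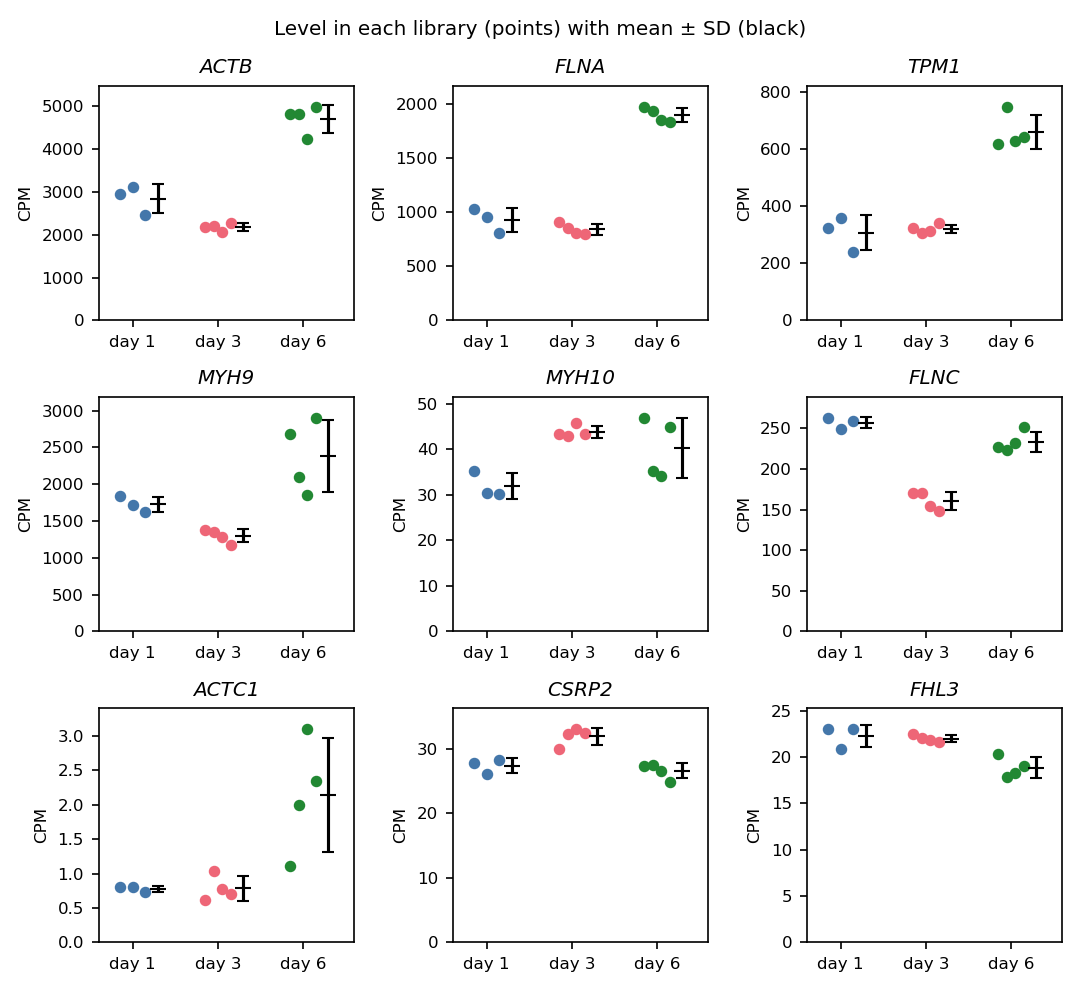
Level of 9 members in CPM (vertical axis, from 0) on days 1, 3 and 6, with 1 point per library and the mean ± SD in black beside the points (n = 3, 4 and 4). ACTB, MYH9 and FLNC are lowest on day 3, FLNA, TPM1 and ACTC1 are high on day 6 alone, MYH10 and CSRP2 are higher on day 3 than on day 1, and FHL3 is lowest on day 6.

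The crosslinkers, which bundle filaments or join them into networks, rose in the late step in all 6 members, after 4 of the 6 had fallen in the early step. FLNA, filamin A (chrX:154348524-154374634, minus strand), had 1031, 956 and 811 CPM on day 1, 907, 856, 806 and 801 on day 3, and 1972, 1934, 1859 and 1838 on day 6. Its day 6 libraries lay close together and above all others, while days 1 and 3 overlapped. FLNA rose by 1.17 in the late step (SE 0.0725, adjusted p = 5.23e-10, edgeR), and its early change was -0.15 (SE 0.0771, adjusted p = 0.234). FLNC, the filamin of muscle (chr7:128830406-128859274, plus strand), had 262.5, 249.8 and 259.2 CPM on day 1, 170.2, 170.3, 154.5 and 148.8 on day 3, and 227.5, 222.9, 231.9 and 251.7 on day 6. The day 3 libraries stood below both other days, which overlapped. FLNC fell by 0.68 in the early step (SE 0.0609, adjusted p = 2.3e-06, edgeR), the largest early fall among the members, and rose by 0.54 in the late step (SE 0.057, adjusted p = 3.14e-07, edgeR). Its net change was -0.14 (SE 0.061, adjusted p = 0.076). The ratio of FLNC to FLNA counts was 0.2546 to 0.3195, then 0.1858 to 0.1989, then 0.1153 to 0.1369, with no overlap between days.

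LIMA1 (EPLIN), which stabilises bundles (chr12:50175788-50283520, minus strand), went from 91.04, 93.18 and 79.51 CPM on day 1 to 66.65, 65.63, 72.85 and 71.54 on day 3 and to 117.1, 108.4, 105.1 and 111.3 on day 6. The ranges of the 3 days were separate, with changes of -0.35 (SE 0.0629) and 0.68 (SE 0.0585). The alpha-actinins ACTN1 and ACTN4 rose by 0.47 and 0.33 in the late step, and palladin (PALLD), which binds alpha-actinin, by 0.32. In the early step ACTN1 fell by 0.20 (adjusted p = 0.0411, edgeR), a call lost in 9 of 20 alternative analyses, and PALLD by 0.28, lost without day 1 replicate 1 or 2, while ACTN4 had a change of -0.09 (adjusted p = 0.447).

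The calponin family members CNN2, CNN3 and TAGLN2, which bind along filaments, were not called in the early step and all rose in the late step, by 0.35, 0.32 and 0.52. TAGLN2, transgelin-2, was the most abundant of them, at 648 ± 22.7 (SD, n = 3), 665 ± 20.9 (n = 4) and 950.9 ± 55.7 (n = 4) CPM on the 3 days. Over the whole formation TAGLN2 rose by 0.55 and CNN3 by 0.37, while CNN2 had a change of 0.19 (adjusted p = 0.0608). CNN1, the smooth muscle calponin and not a member, rose by 1.41 in the late step.

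The genes of filament turnover rose in the late step in all 5 members. CFL1, cofilin-1, which severs filaments, rose by 0.46, DSTN, destrin, of the same family, by 0.31, WDR1, a cofactor of cofilin, by 0.30, CAP1, which recycles monomers, by 0.25 and PFN1, profilin-1, which feeds monomers to growing ends, by 0.24. DSTN alone had fallen before, from 340.9, 340.4 and 354.7 CPM on day 1 to 278.3, 266.3, 286.8 and 292.5 on day 3. That early change was -0.30 (SE 0.0565, adjusted p = 0.0019, edgeR), and the day 6 libraries, at 331.9 to 371.7 CPM, spanned the day 1 range (net change 0.01, adjusted p = 0.901).

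Of 8 LIM-domain proteins that sit at adhesions and on stress fibres, 6 rose in the late step and 2 were not called, LASP1, which binds actin at the cell edge, with a change of -0.09 (adjusted p = 0.232), and PDLIM1. TGFB1I1 (HIC-5, chr16:31471585-31477960, plus strand), a paxillin relative, had 104.9, 100.3 and 96.82 CPM on day 1, 86.16, 77.96, 76.19 and 74.97 on day 3, and 130.2, 124.2, 127 and 129 on day 6. Its 3 days were separate and its day 6 libraries close together, with a coefficient of variation of 2.02%. It fell by 0.35 (SE 0.0562, adjusted p = 0.000458, edgeR) and then rose by 0.69 (SE 0.0523, adjusted p = 4.87e-09, edgeR). LPP (chr3:188153284-188890671, plus strand), a zyxin relative, had 38.5, 38.48 and 32.93 CPM on day 1, 34.21, 30.84, 35.51 and 34.96 on day 3, and 64.39, 50.07, 48.61 and 60.85 on day 6. Days 1 and 3 overlapped, and on day 6 replicates 1 and 4 were the high ones, as for both myosin heavy chains. LPP rose by 0.72 in the late step (SE 0.087, adjusted p = 3.64e-06, edgeR).

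ZYX, zyxin, which is recruited to strained stress fibres, fell by 0.25 in the early step (adjusted p = 0.045) and rose by 0.20 in the late step (adjusted p = 0.0312, edgeR). Both calls were fragile, lost in 6 and 8 of 20 alternative analyses. The late rise of TES, testin, a partner of zyxin, was 0.19 (adjusted p = 0.0458, edgeR), and it was lost in 14 of 20. PDLIM5 and PDLIM7, PDZ and LIM proteins that bind alpha-actinin or tropomyosin, rose by 0.34 and 0.29, whereas PDLIM1 averaged 35.1, 33.8 and 34.0 CPM on the 3 days, with a late change of 0.01 (SE 0.0631, adjusted p = 0.901).

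The FHL and CSRP proteins, small LIM proteins that shuttle between filaments and the nucleus, split, with 2 that rose and 3 that fell in the late step. CSRP1 (chr1:201483530-201509456, minus strand) had 249.5, 284.1 and 213.8 CPM on day 1, 248.9, 255.5, 240.5 and 242.9 on day 3, and 377.2, 433.6, 347.6 and 382.1 on day 6. It rose by 0.64 in the late step (SE 0.0769, adjusted p = 2.08e-06, edgeR), with every day 6 library above the others. CSRP2 (chr12:76858709-76879023, minus strand) did the reverse, with 27.82, 26.02 and 28.32 CPM on day 1, 30.03, 32.26, 33.01 and 32.41 on day 3, and 27.37, 27.51, 26.58 and 24.92 on day 6. It was the only member whose day 3 libraries all lay above those of both other days, which 8.33% of all tested genes did. CSRP2 rose by 0.22 in the early step (SE 0.0638, adjusted p = 0.0278, edgeR), a call lost in 8 of 20 alternative analyses, and fell by 0.26 in the late step (SE 0.059, adjusted p = 0.00105, edgeR).

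FHL1 rose by 0.52 in the late step (SE 0.0567), from 48.62 to 55.39 CPM on day 3 to 73.03 to 83.55 CPM on day 6. FHL3 (chr1:37996764-38005606, minus strand) had 22.98, 20.87 and 22.97 CPM on day 1, 22.48, 22.08, 21.78 and 21.61 on day 3, and 20.31, 17.84, 18.24 and 19.04 on day 6. All its day 6 libraries were below all others. It fell by 0.22 in the late step (SE 0.0644, adjusted p = 0.00751, edgeR) and by 0.24 over the whole formation (SE 0.0689, adjusted p = 0.009, edgeR). FHL2 (chr2:105357712-105438513, minus strand), an SRF partner with a CArG box printed above, had 142.9, 144 and 145.3 CPM on day 1, 152.8, 168.9, 156.2 and 160.6 on day 3, and 142.5, 154.3, 126.5 and 144.5 on day 6. It fell by 0.17 in the late step (SE 0.0572, adjusted p = 0.0192, edgeR), with overlapping libraries, and the call was lost without replicate 2 of day 3 or replicate 3 of day 6. With library totals as the only scaling the late change of FHL2 turned to 0.01. Under that scaling CSRP2 and FHL3 kept their direction, at -0.08 and -0.04, but were not called, and the net fall of FHL3, at -0.11, was not called either.

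**Figure D3:**
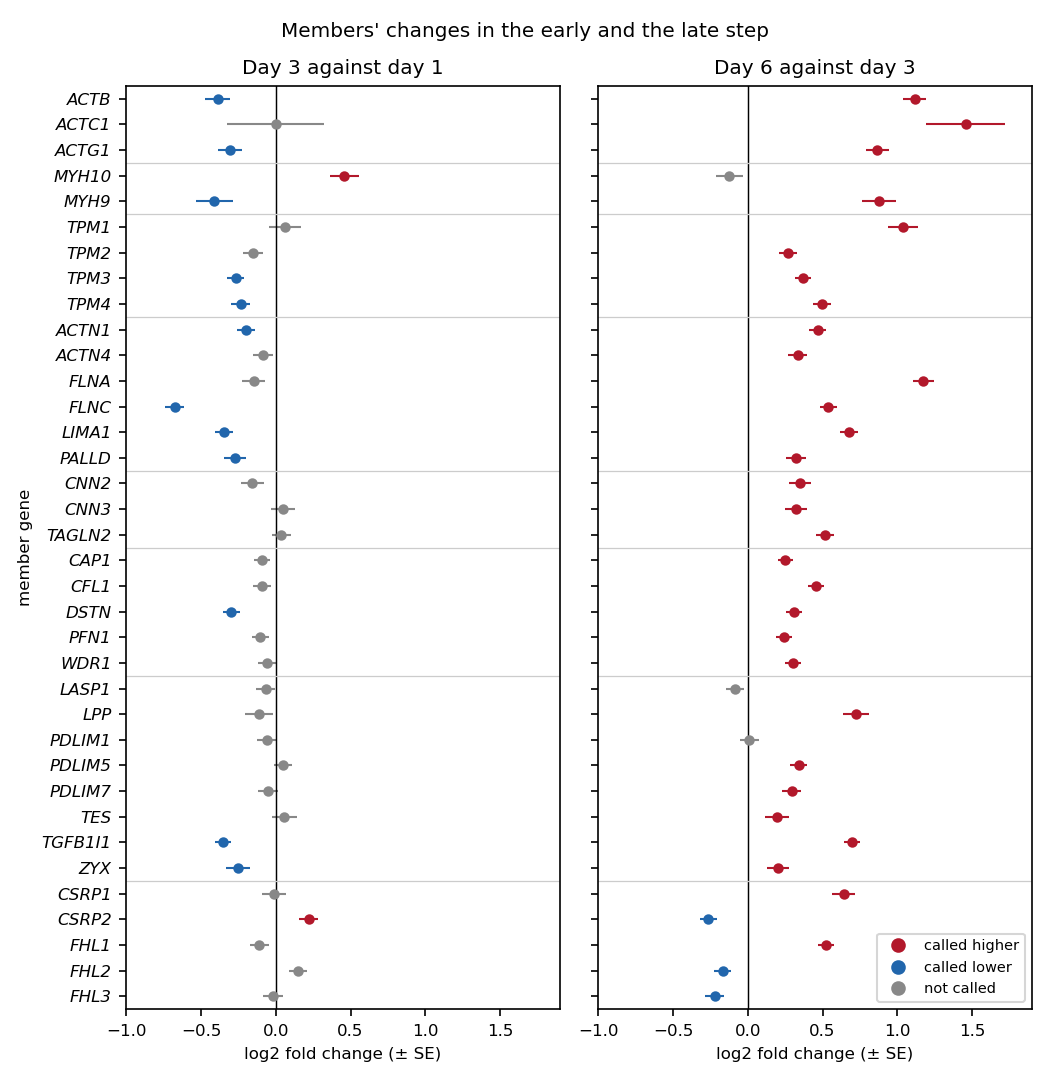
Log2 fold change of each member (vertical axis, grouped by role) in the early step (left) and the late step (right), with bars of 1 SE and red, blue and grey for genes called higher, lower and not called by edgeR (n = 3, 4 and 4 libraries on days 1, 3 and 6). Blue points gather on the left panel among actins, tropomyosins and crosslinkers, and red points fill the right panel except for MYH10, LASP1, PDLIM1, CSRP2, FHL2 and FHL3.

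A dip on day 3 with no overlap between libraries was present in 12 members, from actins and crosslinkers to FHL1, whose early change of -0.11 was not called (adjusted p = 0.269, edgeR). Every day 3 library of these genes lay below every library of days 1 and 6, as did 6.14% of all tested genes. They were ACTB, ACTG1, MYH9, TPM3, TPM4, ACTN1, PALLD, FLNC, LIMA1, DSTN, TGFB1I1 and FHL1. In 28 members every day 6 library lay above every day 3 library, against 22.9% of all genes, and in 21 above every day 1 library, against 22.1%. The reverse, day 6 below every day 3 or every day 1 library, held in 2 and 1 members, against 21.1% and 19.7%. Day 3 lay below every day 1 library in 13 members and above in 3, against 12.9% and 15.2% of all genes. The difference between the steps, late minus early with no allowance for their unequal length, was called higher in 28 members and lower in 3, where 17.5% and 17.7% of all genes were called (35.2% in all). The 3 lower ones were MYH10, CSRP2 and FHL2, at -0.58, -0.48 and -0.32, and with library totals as the only scaling 0 were called lower. ACTB had the largest difference of the 36, 1.502 (SE 0.142, adjusted p = 3.01e-07, edgeR), and FLNC, at 1.21 (SE 0.103), combined a strong fall with a strong rise, while FLNA, at 1.32 (SE 0.13), reached a like value through its late rise. Because each difference takes the day 3 libraries from both steps, it is not independent of either.

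Members with a CArG match in a promoter window and those without changed as follows. ACTB, which had no window, is in neither group. In the late step 10 of the 11 with a match rose and 1 fell, with a median change of 0.52. Of the 24 without a match 19 rose and 2 fell, with a median of 0.32. Of all tested genes 26.4% were called higher and 23.4% lower. In the early step the medians were -0.15 and -0.08, with 4 of 11 and 7 of 24 called lower. Called higher were 0 of 11 and 2 of 24, beside 5.9% of all tested genes lower and 6.88% higher. The difference between these groups was not tested, and TPM1, MYH9 and CSRP1, which rose strongly, had no match in these windows.

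Per kilobase of merged exons (GENCODE 29), the level of the members spanned from ACTB, at 808.4, 618.4 and 1340 CPM per kb on days 1, 3 and 6, to ACTC1, at 0.1692, 0.1702 and 0.4652. ACTG1 came second, at 558.8, 451.6 and 822.7 CPM per kb, followed by TAGLN2, TPM2, PFN1 and MYH9. MYH9 stood at 264.5 CPM per kb on day 6 and MYH10 at 4.468, and FLNA at 179.6 and FLNC at 25.16. Spread within a day was small for most members, with a median coefficient of variation of 5.605% on day 1, 4.076% on day 3 and 6.197% on day 6. After ACTC1, MYH9 and MYH10 spread most on day 6, at 20.5% and 16.1%.

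Ratios within families show the unequal change in a form that the scaling between libraries does not touch. For 16 ratios in 3 comparisons, 48 exact two-sided permutation tests were made, and the smallest p that 3 against 4 or 4 against 4 libraries allow is 0.0286. At an unadjusted p under 0.05 25 of the 48 passed, all at that smallest value, and after Benjamini-Hochberg adjustment 0 of 48 did, with a smallest adjusted p of 0.0549. With so few libraries, the adjusted p depends on how many of the 48 tests reach the smallest p together. The 0 of 48 therefore does not show that the ratios were unchanged. FLNC to FLNA, TPM2 to TPM1, TPM1 to TPM4 and FHL1 to FHL2 had the smallest p in all 3 comparisons. The log2 ratio of MYH9 to MYH10 fell by 0.87 in the early step and rose by 0.99 in the late step, with a net difference of 0.12 between overlapping days. CSRP2 to CSRP1 fell by 0.90 in the late step, from between 0.1207 and 0.1373 to between 0.0635 and 0.0765. FHL1 to FHL2 rose by 0.69 in the late step, from 0.288 to 0.3547 on day 3 to 0.4801 to 0.5784 on day 6. The ratio of DSTN to CFL1 was lower by 0.35 on day 6 than on day 1.

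**Figure D4:**
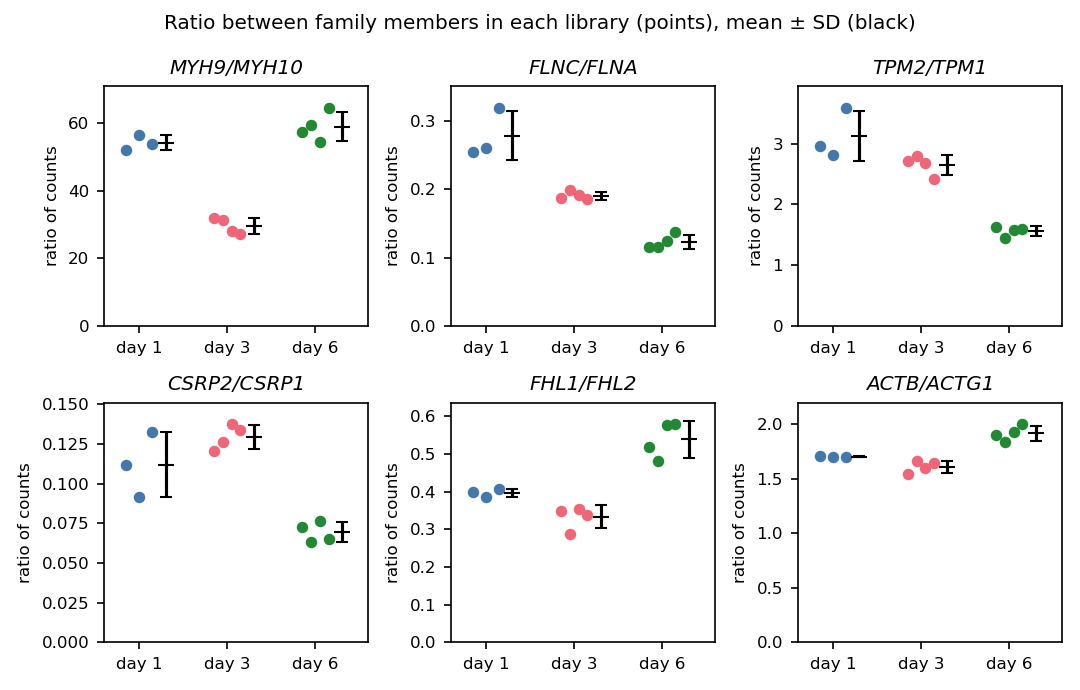
Ratio of counts between 2 members of a family (vertical axis, from 0) in each library on days 1, 3 and 6, with 1 point per library and the mean ± SD in black beside the points (n = 3, 4 and 4). MYH9/MYH10 is low on day 3 alone, FLNC/FLNA and TPM2/TPM1 fall from day to day, CSRP2/CSRP1 is lowest and FHL1/FHL2 and ACTB/ACTG1 are highest on day 6.

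Among SRF and its cofactors, 3 of 7 rose and 3 fell in the late step, beside 26.4% and 23.4% of all tested genes. SRF itself had 98.32 ± 4.74 (SD, n = 3), 100.8 ± 5.32 (n = 4) and 119.2 ± 8.03 (n = 4) CPM on days 1, 3 and 6, and rose by 0.24 in the late step (SE 0.0569, adjusted p = 0.00161, edgeR). MRTFA was not called in any comparison, with a late change of 0.03 (SE 0.0698), and MRTFB rose by 0.28 in the late step (SE 0.0824, adjusted p = 0.009, edgeR). MYOCD, myocardin, the muscle-restricted cofactor, had the day 3 dip, with 54.37 ± 7.42 (SD, n = 3), 31.63 ± 2.01 (n = 4) and 72.13 ± 4.87 (n = 4) CPM. Its early fall was 0.78 (SE 0.0822) and its late rise 1.19 (SE 0.0769). The ternary complex factors ELK1 and ELK3, which compete with MRTFs for SRF, fell by 0.34 and 0.30 in the late step.

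Other genes of filament assembly moved in both directions, as did all tested genes. In the late step 26.4% of all tested genes were called higher and 23.4% lower. Of the Arp2/3 complex and its activators, which branch filaments, 4 of 18 rose and 4 fell in the late step, with a median change of -0.02. ACTR3 and ARPC5, subunits of the complex, fell by 0.25 and 0.19 in the early step and rose by 0.36 and 0.33 in the late step, whereas its activators WASF3 and WASF1 fell by 0.78 and 0.36 in the late step. Of the formins and Ena/VASP proteins, which elongate unbranched filaments, 5 of 13 rose and 4 fell in the late step, with DIAPH3 up by 1.70 and DAAM1 by 0.58, and FMNL3 down by 0.56 and INF2 by 0.32. Over the whole formation 2 Arp2/3 genes rose and 7 fell, and 3 formin or Ena/VASP genes rose and 3 fell. The shares of all tested genes were 21.3% called higher and 18.7% lower.

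Among capping, severing and monomer-binding proteins outside the members, 8 of 18 rose and 3 fell in the late step. The shares of all tested genes were 26.4% and 23.4%. The rises were led by TMOD2, which caps pointed ends, at 0.97, and CAP2 at 0.51, with TMOD1 down by 0.39. TMSB4X, thymosin beta-4, which sequesters monomers, rose by 0.35 in the early step.

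Of the 28 listed paralogs of the members, 21 were tested. In the late step 13 of them rose and 2 fell, with a median of 0.50 beside 0.03 for all genes. Of 23 other SRF targets 14 rose and 2 fell, with a median of 0.64. The shares of all tested genes were 26.4% called higher and 23.4% lower. Both lists hold the smooth muscle genes ACTA2, ACTG2, CNN1, TAGLN and MYH11, so they are not separate counts. ACTG2, enteric smooth muscle actin, rose by 1.51 and CNN1 by 1.41 in the late step. In the early step ACTA2 rose by 0.61 while CCN1, a matricellular target, fell by 0.87 and NEXN, nexilin, by 0.54. FOS, an immediate early target, fell by 0.53 in the late step.

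Markers of other cells were set beside these results. Of all tested genes 6.88% were called higher and 5.9% lower in the early step, and 26.4% and 23.4% in the late step. The 6 markers of dividing cells all rose in the late step, as most members did. Their sum was 24.9 to 43.0 CPM on day 1, 42.3 to 49.8 on day 3 and between 129.7 and 220.8 on day 6. In the early step 0 of the 6 were called, with a median change of 0.35, while 12 members fell and 2 rose. Smooth muscle markers summed to between 1035 and 1105 CPM on day 3 and between 1829 and 2028 on day 6. In the late step 8 of the 9 tested rose and 1 fell. Epithelial markers summed to between 38.22 and 43.69 CPM on day 1, between 52.07 and 55.67 on day 3 and between 31.95 and 38.09 on day 6. The 3 tested ones, KRT8, KRT18 and KRT19, rose in the early step by 0.42, 0.27 and 0.84, the step in which 12 members fell, and KRT8 and KRT18 fell by 0.92 and 0.19 in the late step, with EPCAM and CDH1 at no more than 3 counts in any library. Endothelial markers summed to between 26.8 and 35.8 CPM over all days, most of it PECAM1, and in the late step PECAM1 fell by 0.19 and KDR by 1.13. Leukocyte markers summed to between 3.374 and 10.98 CPM, with PTPRC at no more than 1 count. The part of any of these in the members' changes was not tested.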

How the data were processed

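The authors deposited 1 table of whole-number read counts per gene in 11 libraries, raw and not normalized, and no column of it was left out. Per the submitters' processing notes, the tools were DRAGEN, STAR 2.7.11b, Subread, featureCounts 2.0.8 and Salmon 1.10.0, on GRCh38; their roles, the annotation release, the strand setting and the handling of reads with several matches are not given in the sources used here. Of 79031 rows, 99 were spike-in or transgene rows (92 and 7), held at most 1 count in any library (at most 6.79e-06% of a library) and were left out. The groups are the days in the sample titles.

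Counts were fitted in R 4.3.3 with edgeR 4.0.16 (TMM factors, robust quasi-likelihood test, day as factor, all libraries in 1 fit). The filter filterByExpr kept genes by a minimum count of 10 and a total of 15. Family ratios used counts plus 0.5 and exact permutation tests. The fit was tested on simulated data. Alternatives were RLE factors, library totals, DESeq2 1.42.0, limma-voom 3.58.1, other filters, a replicate block, the 2 days alone and each library left out. Pseudogene and overlapping rows were found by the names, types and positions in the deposited table. Strand and merged exon length came from GENCODE 29.

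Values per library were named for ACTB, ACTG1, ACTC1 and the 6 called members with the largest rise and fall in each comparison of 2 days, and for listed non-members up to 2 rises and 2 falls with the smallest adjusted p, with SRF, MRTFA, MRTFB and MYOCD always. Values of other genes, such as DSTN and NDEL1, were added after they were seen. One of the pathway lists is not reported here. The members, the pathway lists and the markers were chosen with earlier results of these data known. Intervals and p-values cover these libraries only, and in the library with the fewest counts, 28071813, a floor of 3 counts is 0.107 CPM.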

Additional observations from a re-analysis of the deposited data

Results flagged for a closer look

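A library far from its 3 companions, by Dixon's criterion for groups of 4, was found in 5 of 72 member and day groups, where chance gives about 1 in 20. The share found was near that of chance. The groups of a day also come from the same libraries, so they are not independent of each other. FHL1 on day 6 had 83.55 CPM in replicate 4, against 73.03 to 74.08 in the others. CNN3 on day 6 had 154.8 CPM in replicate 3, below the 188.1 to 192.9 of the others. On day 3 replicate 3 was the lowest for CAP1, at 349.7 CPM against 369.8 to 372.1, and for TPM3, at 227.3 against 239.8 to 241.4, and the highest for MYH10, at 45.79 against 43.01 to 43.36.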

How the results depend on the processing

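With library totals as the only scaling 1 member rose in the early step (2 with TMM), 0 fell in the late step (3), 0 fell over the whole formation (1) and 0 had a lower late minus early difference (3), and FHL2 turned from -0.17 to 0.0142 in the late step. Without a filter 1 member rose early and 2 fell over the whole formation; RLE factors gave 2 and DESeq2 3 for the latter. Fitting days 1 and 3 alone called 3617 genes (2332 with all libraries). Leaving out 1 library at a time gave 1344 to 2998 genes called early, with 7 to 14 members (1 to 2 higher, 6 to 12 lower), and 1 to 2 members lower over the whole formation; the late step kept 28 to 30 members higher. Correlations of deviations from the day mean ran from -0.0226 to 0.103 for libraries with the same number in the titles. Between different numbers they ran from -0.0833 to 0.0642. By the letters in the column names they ran from -0.0833 to 0.0221 for the same letter and from -0.0785 to 0.103 otherwise. Correlations this small cannot decide whether the numbers or the letters pair the libraries. With the number as replicate block, 2 members rose and 11 fell early, 29 rose and 3 fell late, and 24 rose and 2 fell over both; with the letter as replicate block it was 1 and 9, 28 and 2, and 16 and 1. Leaving out 1 library turned the sign or moved 11 ratio values, all of ratios with overlapping days and near 0 difference, such as TES to ZYX. The causes were not tested. Low depth limits ACTC1, with 19 to 102 counts per library.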
